A study of Mus musculus with 10 samples.

Results

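Splicing and hnRNP protein mRNAs were followed over 6 groups of mouse embryonic fibroblast RNA, with 44 of the 8251 genes named on the array, and 61 of its 12422 non-control probe sets, as members. A member is a probe set whose platform annotation gives 1 gene symbol that begins with Srsf and a digit, or with Hnrnp, Snrp, Sf3a, Sf3b or U2af. The members comprise 16 probe sets of 9 SR protein genes, 22 of 16 hnRNP genes, 10 of 8 snRNP protein genes, 10 of 8 SF3 genes and 3 of 3 U2AF genes. Another 7 probe sets whose annotation joins such a symbol with others were not counted. The member Snrp1c-ps2 carries a pseudogene symbol.

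The cells were primary fibroblasts of e14.5 embryos, and the genotype on every array is given as C57/BLACK6, ATF1 +/-, so no array comes from cells with both copies of Atf1 intact. All cultures were held for 48 h in 1% dialyzed fetal bovine serum and then for 2 h in 10% serum (serum-treated) or 1% serum (starved). For each serum state there were 2 arrays of polyribosome-associated RNA (mRNA carrying at least 2 ribosomes), 2 of undertranslated RNA (mRNA free of ribosomes, or with only a subunit or 1 ribosome) and 1 of cytoplasmic RNA. The polyribosome and undertranslated pools came from sucrose gradients of cells given cycloheximide, which halts ribosomes on the mRNA, for 30 min, and cytoplasmic RNA came from cells without it. In the gradient groups, the cultures of replicate 2 had been given tritiated cytidine and 200 uM 4-thiouridine, a nucleoside that marks new RNA, and those of replicate 1 had not. Matching fractions of several cultures and runs were combined for each array, so p-values rest on the spread between combined samples, part of which may be technical, and both gradient pools of a replicate may come from the same cells.

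Splicing is carried out by the spliceosome, which is built from snRNPs, most of them with a small nuclear RNA held in a ring of Sm proteins. U2AF reads the 3' end of the intron and brings the U2 snRNP, with its SF3a and SF3b complexes, to the branch site. SR proteins mostly promote, and hnRNP proteins often repress, the use of nearby splice sites, and several members of both families travel to the cytoplasm with mature mRNA. Many of these genes control their own amount through alternative exons that carry an early stop codon, and growth signals act on SR proteins through phosphorylation. The study's question is the early serum response of fibroblast mRNA and of its translation.

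Fibroblast markers Col1a1, Col1a2, Col3a1 and Vim were above background on all 10 arrays, as were the endothelial Pecam1 (3.71 to 6.94 log2 units) and the epithelial Cdh1 (4.73 to 7.89), while the endothelial Cdh5 and epithelial Epcam were above it on none. Background on each array was the brightest of 19 control probe sets for bacterial or yeast RNA that had not been added. Polyribosome arrays had a median intensity of 45.3 to 54.25 and undertranslated arrays one of only 5.7 to 8.8, with cytoplasmic arrays at 19.1 to 19.2. Of the 61 members, 57 to 60 were above background on a polyribosome array, 34 to 48 on an undertranslated array and 51 to 55 on a cytoplasmic array. Of all non-control probe sets, 68.0% to 73.5%, 43.4% to 53.5% and 56.3% to 64.7% were above it, in the same order. Between replicates, the median SD of the tested members was 0.17 and 0.24 log2 units in serum-treated and starved polyribosome RNA, and 0.60 and 0.26 in serum-treated and starved undertranslated RNA. With so few arrays, every value here has limited precision.

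Levels below are log2 intensities after quantile normalization, which gives every array the same distribution, so each difference is relative to the other probe sets. A difference is called where limma's adjusted p, over the 9316 probe sets above the 25th percentile of mean level, is under 0.05. That filter left 57 members of 43 genes. The 4 left out were below background on all undertranslated arrays. Hnrnpab 95911_at was above it on 4 polyribosome arrays, Hnrnpdl 161372_f_at on 2, Hnrnpl 95232_at on 1 and Snrpb 161335_r_at on 0.

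The first comparison asked where these mRNAs lie on the gradient. Relative to other probe sets, 19 of the 57 tested members were higher in polyribosome than in undertranslated RNA, 10 were lower and 28 were not called. Over all probe sets, 54.1% were called in this comparison, 28.8% as higher and 25.3% as lower, so the members' count is near that of the array. The median difference of the members was 0.49 log2 units, against 0.052 for all tested probe sets. Counted by gene, 16 had only higher calls, 8 only lower calls, Hnrnpdl had a call each way, and 18 had none. With the values as deposited all 58 members that then passed the filter were higher in polyribosome RNA, because the median of all probe sets stood 3.02 log2 units toward polyribosomes there. Scaling on hybridization controls also gave 58 higher and none lower, and median centring gave 39 higher and 5 lower. These scalings differ only by a constant for each array. By construction, a member's distance from the median of all probe sets is therefore the same under all of them. In that shared result 41 of the 58 members lay above the median. All 19 members called higher after quantile normalization, and 9 of the 10 called lower, stayed on their side of it, the exception being Snrpe. Sf3b6 lay just below it, at -0.00066 log2 units from it. The calls came from the same data, so this is not independent support.

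**Figure D1:**
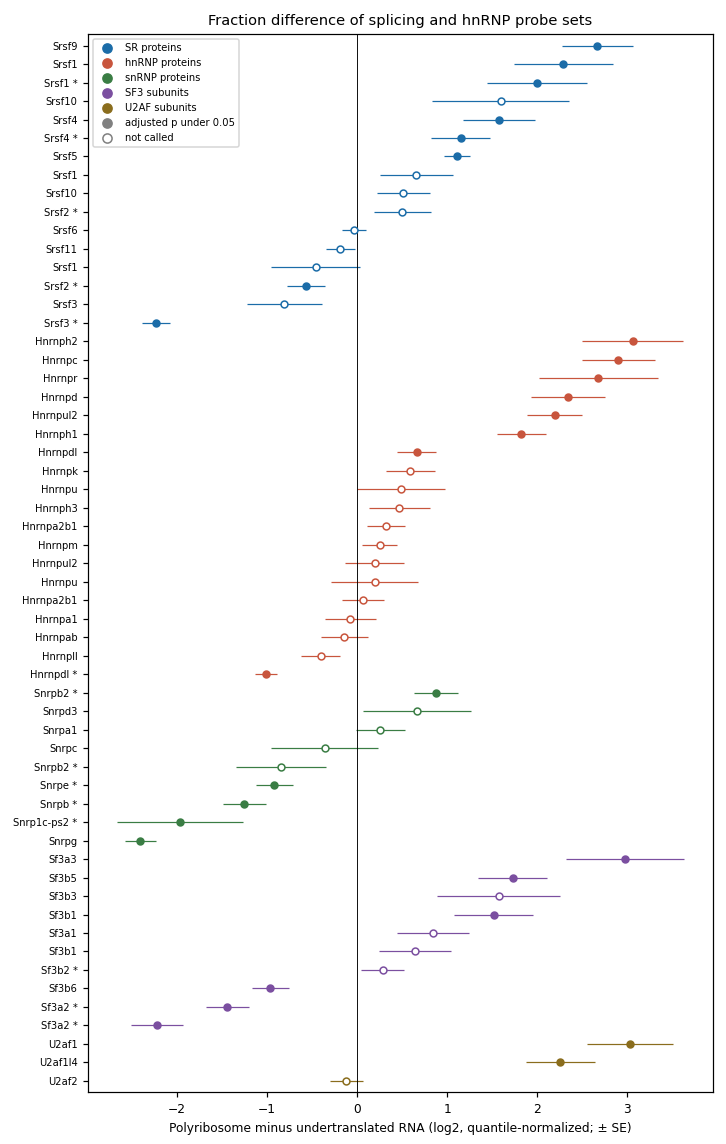
Difference between polyribosome and undertranslated RNA for the 57 tested members (log2, mean over both serum states, bars show 1 SE), ordered within each family, with filled points for calls. An asterisk marks probe sets whose ID has the letter f, r or s; the 19 higher calls lie in every family, and 4 of the 10 lower calls are snRNP probe sets.

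The members that stood furthest apart are shown by their annotated transcription start, since growth-regulated translation is best known for mRNAs that begin with a C and a run of C or T bases. Sequences are RefSeq's, from GRCm38.p6, 5' to 3' on the gene's strand, with 60 bases before the start in lower case and the first 15 transcribed bases in capitals. Snrpg (chr6:86371480-86371554, plus strand), Srsf3 (chr17:29032600-29032674, plus) and Sf3a2 (chr10:80798675-80798749, plus) had the lowest differences. Hnrnph2 (chrX:134601119-134601193, plus), Sf3a3 (chr4:124714801-124714875, plus) and Hnrnpc (chr14:52104007-52104081, minus) were among the highest, and Srsf5 (chr12:80945439-80945513, plus) was the single member with such a start.
Snrpg: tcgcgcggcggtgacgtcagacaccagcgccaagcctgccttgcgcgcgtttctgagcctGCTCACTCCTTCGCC
Srsf3: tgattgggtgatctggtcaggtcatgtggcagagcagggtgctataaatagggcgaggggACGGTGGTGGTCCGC
Sf3a2: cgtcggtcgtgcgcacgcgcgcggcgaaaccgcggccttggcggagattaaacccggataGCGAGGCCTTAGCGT
Hnrnph2: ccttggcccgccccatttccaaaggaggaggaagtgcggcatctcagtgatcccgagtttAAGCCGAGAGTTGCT
Sf3a3: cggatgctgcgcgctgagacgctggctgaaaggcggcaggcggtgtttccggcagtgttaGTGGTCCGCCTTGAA
Hnrnpc: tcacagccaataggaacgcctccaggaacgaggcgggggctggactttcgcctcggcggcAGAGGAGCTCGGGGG
Srsf5: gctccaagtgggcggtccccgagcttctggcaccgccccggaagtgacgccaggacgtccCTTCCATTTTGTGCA
A start was counted where the first base was C and at least 4 further bases, without a break, were C or T, read on the gene's strand. Of 49 annotated promoters of 38 member genes, 1 (2.04%) began this way, against 823 of 32851 promoters of all genes (2.51%). The sequence shows only which letters stand at the annotated start, and the start used in these cells was not measured.

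**Figure D2:**
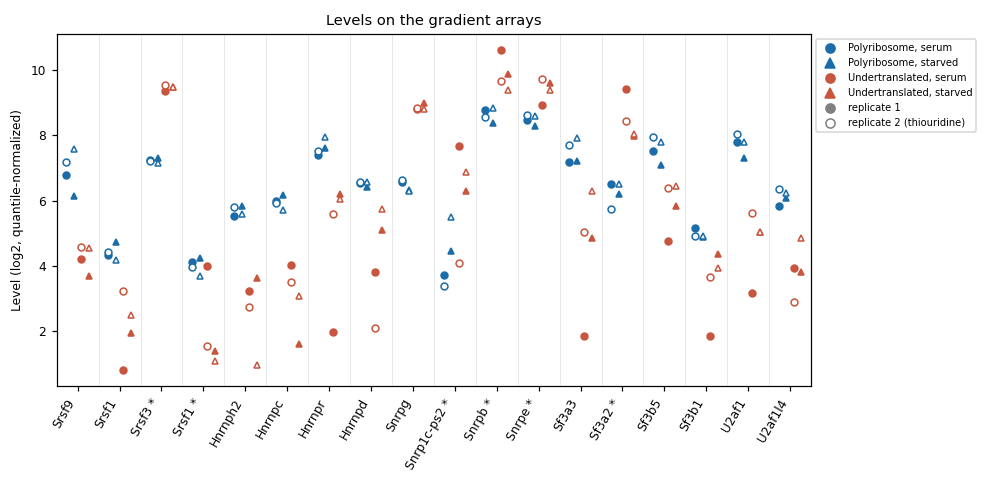
Levels (log2, quantile-normalized) on the 8 gradient arrays of the 18 members with the largest called differences of each family; circles are serum-treated, triangles starved, blue polyribosome and red undertranslated RNA, open points replicate 2, and an asterisk marks a probe set ID with the letter f, r or s. Srsf3, Snrpg, Snrpb and Sf3a2 are higher in red, while U2af1, Sf3a3 and Srsf9 are higher in blue, with widely spread undertranslated points for U2af1 and Sf3a3.

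Among SR proteins 6 of 16 probe sets were higher in polyribosome RNA, 2 were lower and 8 were not called, with a median difference of 0.59 log2 units. Srsf3, the smallest SR protein and an adaptor for mRNA export, had the lowest difference on probe set 101004_f_at. Its levels were 7.24 and 7.23 in serum-treated and 7.32 and 7.15 in starved polyribosome RNA, against 9.36 and 9.56 in serum-treated and 9.48 and 9.49 in starved undertranslated RNA. The pools did not overlap, and the difference was -2.23 ± 0.16 (SE; adjusted p = 3.38e-05). As deposited, the same probe set read 487 to 722 units in polyribosome RNA, against 71.8 to 277 in undertranslated RNA, so the direction turns without rescaling. Its other probe set, 101003_at, stood at -0.81 ± 0.42 and was not called.

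Srsf5, whose annotated start has the run of C or T bases printed above, went the other way with little spread. A link between the start and the direction was not tested. It had 11.03 and 10.64 in serum-treated and 11.07 and 10.96 in starved polyribosome RNA, against 9.80 and 9.67 in serum-treated and 9.69 and 10.11 in starved undertranslated RNA. All polyribosome arrays lay above all undertranslated arrays, with a difference of 1.11 ± 0.15 (adjusted p = 0.000484). As deposited it read 4904 to 6225 units in polyribosome RNA, against 98.1 to 485 units in undertranslated RNA.

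Srsf9, an SR protein that shuttles between nucleus and cytoplasm, had 6.79 and 7.19 in serum-treated and 6.13 and 7.60 in starved polyribosome RNA, against 4.22 and 4.59 in serum-treated and 3.68 and 4.55 in starved undertranslated RNA. The difference was 2.67 ± 0.39 (adjusted p = 0.000755), but only 1 of the 4 undertranslated arrays was above background. Both Srsf4 probe sets were higher in polyribosome RNA, by 1.15 ± 0.33 and 1.57 ± 0.40, with 2 and 1 undertranslated arrays above background. Srsf1, the founding SR protein, had 4 probe sets that disagreed. Probe sets 160539_at and 160141_r_at were called higher in polyribosome RNA (adjusted p = 0.00808 and 0.0151) with no undertranslated array above background, so that no fold is given. Outside the polyribosome pool, 160539_at was above background on 1 cytoplasmic array and 160141_r_at on none. Their polyribosome levels helped both pass the level filter, which takes the mean of all arrays, so these calls are not independent support. Probe set 104586_at stood at 0.66 ± 0.41, not called. Probe set 160539_at had 4.35 and 4.43 in serum-treated and 4.72 and 4.17 in starved polyribosome RNA, against 0.81 and 3.24 in serum-treated and 1.95 and 2.50 in starved undertranslated RNA. For 160141_r_at the levels were 4.11 and 3.96 in serum-treated and 4.24 and 3.71 in starved polyribosome RNA, against 4.00 and 1.54 in serum-treated and 1.40 and 1.09 in starved undertranslated RNA, and its pools overlapped. The remaining set, 101022_at, was not called and was above background on 2 polyribosome and no undertranslated arrays.

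Srsf2, which marks nuclear speckles, likewise had 1 probe set called lower, at -0.57 ± 0.21 (adjusted p = 0.0475), and another at 0.50 ± 0.32, not called. Srsf6 and Srsf11 were bright in all pools and showed small differences, of -0.033 ± 0.14 and -0.19 ± 0.16 log2 units, neither called. Srsf6 had 9.01 to 9.13 in polyribosome RNA, against 8.95 to 9.22 in undertranslated RNA.

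The hnRNP family had 7 of 19 probe sets higher in polyribosome RNA, 1 lower and 11 not called, with a median difference of 0.47. Hnrnpc, which binds tracts of U, had 6.00 and 5.94 in serum-treated and 6.17 and 5.72 in starved polyribosome RNA, against 4.03 and 3.50 in serum-treated and 1.61 and 3.09 in starved undertranslated RNA. No undertranslated array was above background, and the probe set was at least 2.78-fold higher in polyribosome RNA (adjusted p = 0.000597). Hnrnph2, a binder of G runs, had 5.53 and 5.81 in serum-treated and 5.85 and 5.60 in starved polyribosome RNA, against 3.22 and 2.75 in serum-treated and 3.62 and 0.96 in starved undertranslated RNA. It was below background on the same 4 arrays and was at least 2.32-fold higher in polyribosome RNA (adjusted p = 0.00226). Such bounds set the mean of the bright pool against the dim pool held at the lowest level counted as above background, and they apply within this scaling only.

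Hnrnph1, a close relative of Hnrnph2, was above background on all 8 gradient arrays. It had 8.84 and 8.61 in serum-treated and 8.86 and 8.34 in starved polyribosome RNA, against 6.09 and 7.10 in serum-treated and 6.83 and 7.34 in starved undertranslated RNA, a difference of 1.82 ± 0.27 (adjusted p = 0.000834). It was 1 of 4 members called higher in polyribosome RNA when the test was limited to probe sets that exceeded background on each of the 8 arrays, a limit chosen after the data were seen. The others were Srsf5, Snrpb2 92839_f_at and Hnrnpdl 96084_at, named after their values were seen, and the same limit gave 9 lower calls. It left 30 members, and of all probe sets tested under it 23.0% were higher and 46.4% were lower.

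Hnrnpr, an RNA-binding protein related to Syncrip, had 7.40 and 7.52 in serum-treated and 7.63 and 7.95 in starved polyribosome RNA, against 1.96 and 5.58 in serum-treated and 6.20 and 6.05 in starved undertranslated RNA. The pools did not overlap, with a difference of 2.68 ± 0.66 (adjusted p = 0.00906), and serum-treated undertranslated replicate 1 lay far below the others. Hnrnpd, which binds AU-rich elements, differed by 2.34 ± 0.41 (adjusted p = 0.00177) and Hnrnpul2 104296_at by 2.19 ± 0.31 (adjusted p = 0.000607), with 2 and 1 undertranslated arrays above background. A second Hnrnpul2 probe set stood at 0.20 ± 0.33, not called.

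Hnrnpdl, which regulates its own splicing, was the gene called both ways. Probe set 96083_s_at had 9.66 to 9.96 in polyribosome RNA, against 10.63 to 10.83 in undertranslated RNA, a difference of -1.01 ± 0.13 (adjusted p = 0.000337), and 96084_at had 0.66 ± 0.22 (adjusted p = 0.031). Which transcripts each of the pair detects was not analysed here. The abundant family members Hnrnpa2b1, Hnrnpk and Hnrnpm were not called, with differences between 0.063 and 0.59 on their 4 probe sets, and Hnrnpa1 stood at -0.076 ± 0.28.

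The snRNP proteins had 1 of 9 probe sets higher in polyribosome RNA, 4 lower and 4 not called, with a median difference of -0.85 relative to other probe sets. The 4 lower calls turn in sign under both unscaled values and hybridization control scaling. Snrpe then also lies above the median of all probe sets, by 0.13, and by construction equally so with median centring, while the other 3 stay below it. Snrpg, a small Sm ring protein, had 6.57 and 6.64 in serum-treated and 6.34 and 6.29 in starved polyribosome RNA, against 8.80 and 8.85 in serum-treated and 9.0 and 8.82 in starved undertranslated RNA. The pools did not overlap, with a difference of -2.41 ± 0.17 (adjusted p = 3.59e-05). As deposited it read 238 to 318 units in polyribosome RNA, against 49.7 to 157 in undertranslated RNA.

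Further Sm proteins were lower in polyribosome RNA on probe sets with suffix letters. Snrpb 160555_r_at, which encodes the SmB proteins, had 8.79 and 8.56 in serum-treated and 8.39 and 8.83 in starved polyribosome RNA, against 10.61 and 9.67 in serum-treated and 9.90 and 9.41 in starved undertranslated RNA, a difference of -1.25 ± 0.24 (adjusted p = 0.00275). Snrpe, a ring partner of Snrpg, had 8.47 and 8.64 in serum-treated and 8.30 and 8.59 in starved polyribosome RNA, against 8.93 and 9.74 in serum-treated and 9.62 and 9.38 in starved undertranslated RNA, a difference of -0.92 ± 0.21 (adjusted p = 0.00606). Neither pair of pools overlapped.

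The pseudogene symbol Snrp1c-ps2 had 3.72 and 3.39 in serum-treated and 4.47 and 5.51 in starved polyribosome RNA, against 7.69 and 4.09 in serum-treated and 6.29 and 6.88 in starved undertranslated RNA. The pools overlapped, the difference was -1.97 ± 0.70 (adjusted p = 0.0421), and the probe set may also detect other transcripts. Snrpd3, another Sm protein, stood at 0.66 ± 0.60 and was not called. The U2 snRNP protein Snrpb2 was higher in polyribosome RNA on 92839_f_at, by 0.88 ± 0.25 (adjusted p = 0.016), and at -0.85 ± 0.50, not called, on 162026_r_at.

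SF3 subunits split, with 3 of 10 probe sets higher in polyribosome RNA, 3 lower and 4 not called. Both SF3a subunits that were called moved apart. Sf3a3 had 7.17 and 7.70 in serum-treated and 7.21 and 7.92 in starved polyribosome RNA, against 1.87 and 5.05 in serum-treated and 4.87 and 6.31 in starved undertranslated RNA, a difference of 2.98 ± 0.66 (adjusted p = 0.00559). Sf3a2 92197_r_at had 6.52 and 5.76 in serum-treated and 6.19 and 6.51 in starved polyribosome RNA, against 9.43 and 8.43 in serum-treated and 7.98 and 8.05 in starved undertranslated RNA, a difference of -2.22 ± 0.29 (adjusted p = 0.000384). Neither overlapped between pools, and the second Sf3a2 probe set gave -1.45 ± 0.24 (adjusted p = 0.00134).

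In SF3b, Sf3b5 had 7.51 and 7.96 in serum-treated and 7.09 and 7.81 in starved polyribosome RNA, against 4.78 and 6.38 in serum-treated and 5.84 and 6.45 in starved undertranslated RNA. It was higher in polyribosome RNA by 1.73 ± 0.38 (adjusted p = 0.0057), without overlap. Sf3b1, the large subunit that holds the branch site, was higher on 97808_at by 1.52 ± 0.44 (adjusted p = 0.019, 1 undertranslated array above background), while 96777_at stood at 0.64 ± 0.40, not called. On 97808_at it had 5.17 and 4.93 in serum-treated and 4.87 and 4.93 in starved polyribosome RNA, against 1.87 and 3.67 in serum-treated and 4.35 and 3.95 in starved undertranslated RNA. Sf3b6, which sits at the branch adenosine, was lower, with 6.60 to 7.20 in polyribosome RNA, against 7.37 to 8.26 in undertranslated RNA, a difference of -0.96 ± 0.21 (adjusted p = 0.00487).

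The U2AF subunits differed from one another. U2af1, which contacts the AG at the end of the intron, had 7.81 and 8.06 in serum-treated and 7.32 and 7.81 in starved polyribosome RNA, against 3.17 and 5.62 in serum-treated and 5.03 and 5.06 in starved undertranslated RNA. The difference was 3.03 ± 0.48 (adjusted p = 0.00111). Its relative U2af1l4 had 5.83 and 6.36 in serum-treated and 6.09 and 6.24 in starved polyribosome RNA, against 3.93 and 2.91 in serum-treated and 3.8 and 4.85 in starved undertranslated RNA. It was higher by 2.26 ± 0.38 (adjusted p = 0.00153, 1 undertranslated array above background). U2af2, the partner that binds the polypyrimidine tract, stood at -0.12 ± 0.18, not called, with 8.96 to 9.39 in polyribosome RNA, against 9.08 to 9.71 in undertranslated RNA.

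Properties of the arrays moved with these directions. Of the 57 tested members, 55 were above background on all 4 polyribosome arrays and 30 on all 4 undertranslated arrays, and 6 were above it on no undertranslated array. Of all 9316 tested probe sets, 7745 were above background on all 4 polyribosome arrays and 3781 on all 8 gradient arrays, against 55 and 30 members. The letters f, r and s in a probe set ID mark sets that may match several transcripts or were designed under looser rules. Members without these letters had 16 higher and 2 lower calls of 43, and those with them had 3 higher and 8 lower calls of 14. Over all tested probe sets the same split gave 31.4% higher and 22.6% lower of 7362 without letters, and 19.1% higher and 35.6% lower of 1954 with them, a split chosen after the data were seen. The array's control probe set for the B2 repeat, a short mobile element, read 11.93 to 12.71 log2 units in polyribosome RNA and 12.85 to 13.16 in undertranslated RNA. The ratio of the 3' to the 5' control probe sets of Actb, a sign of RNA quality, was 11.5 to 21.1 in polyribosome RNA and 23.6 to 137 in undertranslated RNA, and that of Gapdh was 6.11 to 20.9 and 3.70 to 6.81. The part of these properties in the results was not tested.

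The gradient comparison was then taken within each serum state. In serum-treated cells 17 members were higher in polyribosome RNA and 7 were lower, beside 23.6% and 20.3% of all probe sets. In starved cells 9 were higher and 8 were lower, beside 14.9% and 13.5%. Hnrnpc, Hnrnph1, Hnrnph2, Hnrnpul2, Srsf5, Srsf9, U2af1 and U2af1l4 were called higher, and Hnrnpdl, Sf3a2, Sf3b6, Snrpb, Snrpg and Srsf3 lower, in both states. Srsf1 was called higher in each on a different probe set, with the limit on the level filter given above. The serum-treated count of 24 and the starved count of 17 rest on few arrays. Leaving out any polyribosome array lowered both counts, and leaving out either starved undertranslated array lowered the starved count. Leaving out either serum-treated undertranslated array raised both, although the starved comparison does not hold these arrays. The share of all probe sets called moved the same way each time. The counts of the 2 states are therefore no measure of a serum effect.

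Whether serum moved any of these mRNAs between the gradient pools was tested by the interaction, in which no member and 0% of all probe sets passed with limma. At an unadjusted p under 0.05 there were 3 members and 722 probe sets in all. The members were Srsf4 102093_f_at at 2.19 ± 0.66 (adjusted p = 0.523), Hnrnpd at 2.53 ± 0.82 (adjusted p = 0.562) and Hnrnph3 at 1.72 ± 0.68 (adjusted p = 0.615), where a positive value is a shift toward polyribosomes with serum. Without serum-treated undertranslated replicate 2 the count of members was 10, beside 9.69% of all probe sets.

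The levels of these 3, none of which passed, were as follows. Srsf4 102093_f_at had 5.27 and 4.70 in serum-treated and 4.79 and 4.83 in starved polyribosome RNA, and 2.58 and 2.91 in serum-treated and 4.56 and 4.94 in starved undertranslated RNA. Hnrnpd had 6.54 and 6.58 in serum-treated and 6.42 and 6.57 in starved polyribosome RNA, and 3.82 and 2.09 in serum-treated and 5.09 and 5.74 in starved undertranslated RNA. Hnrnph3, a small relative of Hnrnph1, had 6.85 and 6.98 in serum-treated and 7.50 and 6.89 in starved polyribosome RNA, and 4.86 and 6.31 in serum-treated and 7.42 and 7.75 in starved undertranslated RNA. In each case the polyribosome arrays of both states overlapped and the serum-treated undertranslated arrays were lowest, and for Srsf4 and Hnrnpd those arrays were below background.

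Serum response was next read within each pool. In polyribosome RNA no member of 57 passed in limma, beside 0.0537% of all probe sets, and 1 member and 575 probe sets had an unadjusted p under 0.05. The members' median difference was -0.0089 log2 units, and the single member was Snrp1c-ps2 at -1.44 ± 0.36 (adjusted p = 0.367). In undertranslated RNA no member passed, beside 1.07% of all probe sets, with 9 members and 1755 probe sets at an unadjusted p under 0.05. The lowest adjusted p-values were 0.0827 for Srsf4 102093_f_at, at -2.01 ± 0.46, 0.0831 for Hnrnpd and 0.0897 for Hnrnph3, at -2.0 ± 0.48. Of the 9, only Hnrnpc had a positive difference, with no undertranslated array above background. The members' median was -0.34, against -0.041 for all probe sets. The count of members called was 17 without serum-treated undertranslated replicate 2, beside 24.7% of all probe sets, and 2, beside 4.72%, without replicate 1, whose levels for several members named above were the lowest of the pool.

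The single cytoplasmic array of each state gave a value but no test. The members' median difference, serum-treated minus starved, was -0.054, against -0.0069 for all probe sets, and 2 of 57 members (3.51%) differed by more than 1 log2 unit, against 12.1% of all. The pair was U2af1, with 9.16 in serum-treated and 7.99 in starved cytoplasmic RNA, and Srsf10 102046_at, with 3.10 in serum-treated and 4.35 in starved cytoplasmic RNA, the serum-treated value being below background. In polyribosome RNA the difference of U2af1 was 0.37 ± 0.26, not called.

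**Figure D3:**
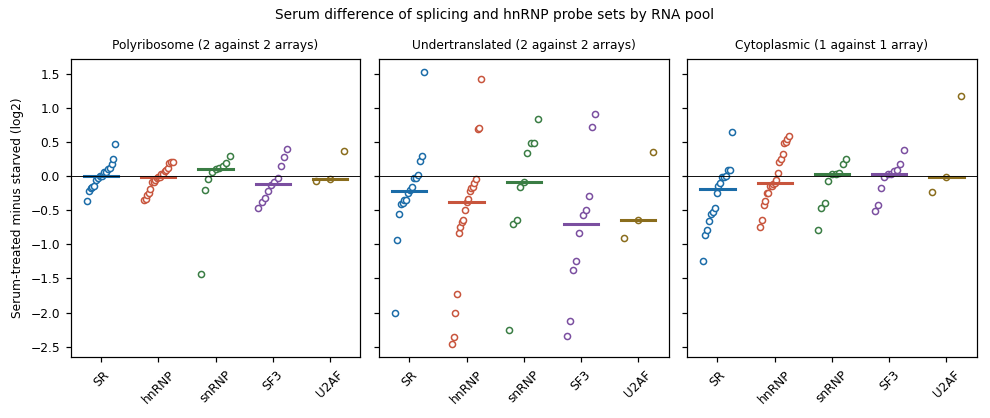
Serum-treated minus starved difference (log2) of the tested members by family in polyribosome, undertranslated and cytoplasmic RNA; circles are probe sets and lines family medians. Polyribosome and cytoplasmic values gather near 0, while undertranslated values reach from -2.46 to 1.52.

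With polyribosome and cytoplasmic arrays fitted together, 3 arrays per state, no member was called, beside 0.891% of all probe sets. In that fit 4 members and 1096 probe sets had an unadjusted p under 0.05. They were Snrp1c-ps2 at -1.11 ± 0.32 (adjusted p = 0.202), U2af1 at 0.64 ± 0.23 (0.319), Sf3b6 at -0.45 ± 0.17 (0.351) and Sf3b3 at -0.42 ± 0.18 (0.401). No family had a median further than 0.091 from 0. Macrophage markers did rise in this fit, with 7 of 9 tested probe sets called and a median of 1.41. Their 16 probe sets summed to 1195 to 1551 in serum-treated and 463 to 473 in starved polyribosome RNA, to 622 to 934 and 369 to 465 in undertranslated RNA, and to 846 and 393 in cytoplasmic RNA. The defining marker Ptprc was below background on nearly all arrays, Csf1r was above it on 8 or 9 of 10, and the part of such cells in the members' values was not tested. Summed endothelial markers were 132 to 142 in serum-treated and 97.7 to 129 in starved polyribosome RNA, and 279 to 301 and 139 to 191 in undertranslated RNA. Epithelial ones were 95.3 to 114 in serum-treated and 81.0 to 82.3 in starved polyribosome RNA, and 298 to 319 and 141 in undertranslated RNA. Most of the probe sets summed on an undertranslated array were below background. Above it were 5 or 6 of 16 macrophage, 1 to 4 of 11 endothelial and 1 to 3 of 10 epithelial probe sets. On polyribosome arrays 11 or 12 of the macrophage probe sets were above background in serum-treated and 10 in starved cells. On cytoplasmic arrays they were 8 in serum-treated and 9 in starved cells.

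The last comparison set each gradient pool against cytoplasmic RNA. Gradient cultures alone had cycloheximide, so pool and drug cannot be told apart, and both comparisons share the cytoplasmic arrays. Against cytoplasmic RNA, 13 members were higher in polyribosome RNA and 11 were lower, beside 14.49% and 11.97% of all probe sets. In undertranslated RNA 9 were higher and 11 were lower, beside 14.3% and 15.93%. Without the serum-treated cytoplasmic array the counts of 24 and 20 became 1 and 3, beside 3.78% and 5.0% of all probe sets, and without the starved one 13 and 11, beside 14.1% and 11.5%. As deposited, 48 members were higher in polyribosome RNA and 45 lower in undertranslated RNA with none the other way, as the medians of all probe sets there stood at 1.31 and -1.55.

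Some SR, snRNP and SF3 mRNAs were higher than in cytoplasmic RNA in both gradient pools. Srsf11 was higher by 1.07 ± 0.20 in polyribosome and 1.26 ± 0.20 in undertranslated RNA, Srsf6 by 0.98 ± 0.17 and 1.02 ± 0.20, and Srsf3 101003_at, below background on the serum-treated cytoplasmic array, by 1.47 ± 0.26 and 2.28 ± 0.58. On the brighter Srsf3 101004_f_at, polyribosome arrays read 7.15 to 7.32, close to 6.85 in serum-treated and 7.10 in starved cytoplasmic RNA. Snrpe was higher by 0.88 ± 0.20 and 1.80 ± 0.26, and Sf3b6 by 0.60 ± 0.18 and 1.56 ± 0.30. Srsf6 read 8.08 and 8.10 in serum-treated and starved cytoplasmic RNA, below all 8 gradient arrays, and for Srsf6, Srsf11, Snrpe and Sf3b6 the undertranslated direction turns with the values as deposited.

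Others were lower than in cytoplasmic RNA in both pools. Hnrnpm, a regulator of alternative exons, was lower, at -1.29 ± 0.22 in polyribosome and -1.54 ± 0.26 in undertranslated RNA, and U2af2 was lower, at -1.14 ± 0.20 and -1.02 ± 0.20. U2af1 was at -0.83 ± 0.24 and -3.86 ± 0.70, and Srsf4 104754_at at -1.31 ± 0.18 and -2.88 ± 0.65, with 1 undertranslated array above background. Snrpg was lower in polyribosome RNA, at -1.13 ± 0.18, and higher in undertranslated RNA, at 1.28 ± 0.22, with 7.61 and 7.56 in serum-treated and starved cytoplasmic RNA, between the gradient pools. Hnrnpk, which binds C-rich stretches, was higher in polyribosome RNA by 1.24 ± 0.25 and not called in undertranslated RNA. With the values as deposited, Hnrnpm, U2af1, U2af2 and Snrpg had positive polyribosome differences.

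**Figure D4:**
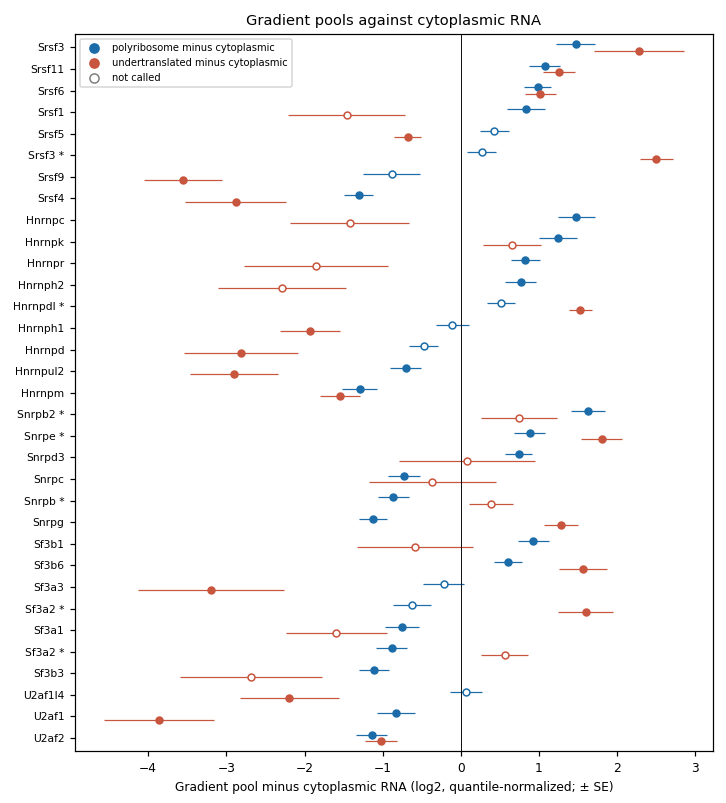
Polyribosome (blue) and undertranslated (red) minus cytoplasmic RNA (log2, bars show 1 SE) for the 33 members called in either comparison; open points are not called and an asterisk marks a probe set ID with the letter f, r or s. Srsf3, Srsf6 and Srsf11 lie right of 0 in both pools and Hnrnpm and U2af2 left of 0 in both.

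Thiouridine-labelled replicate 2 was set against replicate 1 over the gradient arrays. All labelled cultures were replicate 2, so labelling and any other difference between the replicates cannot be told apart. No member and 0% of probe sets passed in limma, with 6 members and 597 probe sets at an unadjusted p under 0.05. Among the 6 were Sf3a3 at 1.47 ± 0.45, Sf3b5 at 0.85 ± 0.26 and both Srsf2 probe sets at -0.50 ± 0.12 and -0.60 ± 0.24 (adjusted p = 0.694 each).

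Other genes of the splicing pathway were read from fixed lists. Their counts between the gradient pools stand beside 28.8% higher and 25.3% lower calls over all probe sets. Spliceosome proteins outside the member families had 14 of 43 probe sets higher in polyribosome RNA and 11 lower, with a median of -0.0056. Prpf8, the core of the catalytic spliceosome, was higher by 3.52 ± 0.39 (adjusted p = 0.000192, 1 undertranslated array above background), and Aqr and Eftud2, both below background on all undertranslated arrays, were at least 2.69-fold and 2.22-fold higher. Other splicing regulators had 27 of 51 higher and 4 lower, with a median of 1.04. Among them the hnRNP relative Syncrip was at least 3.07-fold higher and the splicing factor Rbm25 at least 1.74-fold, both below background on the undertranslated arrays, and Sfpq, with 1 undertranslated array above background, was higher by 3.03 ± 0.75.

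Kinases and importers of SR proteins had 5 of 13 probe sets higher and 2 lower, beside the same 28.8% and 25.3% of all probe sets. These shares apply to the further lists below too, some of which hold few probe sets. Clk1, a kinase that phosphorylates SR proteins in the nucleus, was lower, at -1.68 ± 0.21 (adjusted p = 0.000301), with a mean of 8.77 in polyribosome and 10.46 in undertranslated RNA, while Prpf4b was at least 1.27-fold higher. Factors that assemble snRNPs had 7 of 10 higher and none lower. They included Coil, the scaffold of Cajal bodies, at least 1.64-fold higher, Clns1a by 2.21 ± 0.47 and Wdr77 by 1.67 ± 0.37. Of the Sm proteins that are assembled, Snrpg, Snrpb and Snrpe were lower, the last 2 on probe sets with suffix letters. Snrpd3 stood at 0.66 ± 0.60, not called, and the side of the median on which Snrpe lay changed with the scaling, as given above. Exon junction and export factors had 2 of 7 higher and 1 lower, the last being Rbm8a, a core exon junction protein, at -1.69 ± 0.21 (adjusted p = 0.000306). No probe set of these lists was called for serum in polyribosome RNA, in polyribosome with cytoplasmic RNA, or in the interaction. In undertranslated RNA 1 was called, beside 1.07% of all probe sets. It was the helicase Dhx16 at -2.89 ± 0.46 (adjusted p = 0.0334), with 2 undertranslated arrays above background.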

How the data were processed

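The authors deposited 1 linear intensity for each probe set on each array, and per the labels' protocols RNA was reverse-transcribed, linearly amplified and labelled with biotin for Affymetrix arrays. How probes were summarised, and whether arrays were scaled, is not given in the sources used here. A pseudocount of 1.5, the 10th percentile of the table, was added before log2 was taken, and the 10 arrays were quantile normalized. Quantile normalization gives dim and bright arrays 1 distribution, so it can over- or understate differences of dim probe sets. limma 3.58.1 in R 4.3.3 (lmFit, eBayes with a trend) fitted the 8 gradient arrays as 4 groups, the 4 polyribosome arrays alone for serum within that pool, and 6 arrays with pool and serum terms for comparisons with cytoplasmic RNA. The groups of a fit share a single estimate of the spread for each probe set. Replicates of serum-treated undertranslated RNA varied most, with a median SD of 0.60 for members. P-values that involve this group may therefore be too low, and those within starved cells too high. All p-values are two-sided and were adjusted by Benjamini-Hochberg over the 9316 probe sets.

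Symbols come from the platform annotation, and all 61 members matched the reference gene table by Entrez gene with no symbol changed. The members, the gene lists and the tests were chosen with earlier results of these data known. Levels on every gradient array are given for up to 4 called probe sets per family with the largest gradient difference and for the 3 members with the lowest p in a serum comparison; Srsf5 and Hnrnph1, chosen after their values were seen, are given in the same way, other called members by range or difference, and of each gene list up to 3 called members with the largest difference. Same-numbered arrays share thiouridine labelling. The correlation of their deviations from the group mean was 0.275 for the polyribosome groups and 0.0167 to 0.0534 for other pairs of groups, and the replicate number as a block was an alternative fit. The other alternatives were scalings, pseudocounts, filters, no variance trend, array weights and each array left out. The fits were tested on simulated data.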

Additional observations from a re-analysis of the deposited data

How the results depend on the processing

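The scaling decided direction for part of the calls only. Of the 29 calls between the gradient pools, 10 turned without rescaling and 10 when hybridization controls set the scale. Median centring turned 6. All that turned had been called lower, and the 19 higher calls kept their direction. With values as deposited the counts of members called became 58 (58 higher, 0 lower) for polyribosome against undertranslated RNA, 57 (57 and 0) in serum-treated and 56 (56 and 0) in starved cells, 48 (48 and 0) for polyribosome and 45 (0 and 45) for undertranslated against cytoplasmic RNA. Hybridization control scaling gave 58 (58 and 0), 57 (57 and 0), 57 (57 and 0), 8 higher in polyribosome than in cytoplasmic RNA, and 58 (0 and 58) for undertranslated against cytoplasmic RNA. Median centring gave 44 (39 and 5), 39 (37 and 2), 33 (30 and 3), 7 lower in polyribosome than in cytoplasmic RNA, and 2 higher and 25 lower in undertranslated than in cytoplasmic RNA. These settings move the median of all probe sets, which by construction shifts every difference. Shares of all probe sets called under these scalings are not given here. The members' moves therefore cannot be told from moves of the whole array.

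Reversed members of the polyribosome minus undertranslated difference were, as deposited, Hnrnpdl 96083_s_at 2.49, Sf3a2 92196_f_at 2.68 and 92197_r_at 1.72, Sf3b6 3.02, Snrp1c-ps2 1.07, Snrpb 2.71, Snrpe 3.15, Snrpg 1.49, Srsf2 94017_s_at 2.70 and Srsf3 101004_f_at 1.74. With hybridization control scaling they were, in the same order, 2.80, 2.99, 2.03, 3.33, 1.38, 3.02, 3.46, 1.80, 3.01 and 2.05. With median centring Hnrnpdl 96083_s_at stood at 0.028, Sf3a2 92196_f_at at 0.22, Sf3b6 at 0.55, Snrpb at 0.24, Snrpe at 0.68 and Srsf2 94017_s_at at 0.23. Against cytoplasmic RNA as deposited, polyribosome differences reversed for Hnrnpm (0.41), Hnrnpul2 104296_at (0.60), Sf3a1 (0.45), Sf3a2 92196_f_at (0.64), Sf3b3 (0.30), Snrpb (0.80), Snrpc (0.42), Snrpg (0.22), U2af1 (0.75) and U2af2 (0.57). Undertranslated differences reversed as deposited for Hnrnpdl 96083_s_at (-0.47), Sf3a2 92197_r_at (-0.98), Sf3b6 (-0.86), Snrpe (-0.65), Snrpg (-1.28), Srsf11 (-1.25) and Srsf6 (-1.53). With hybridization control scaling the same members stood at -2.37, -2.88, -2.76, -2.55, -3.17, -3.15 and -3.42, and Srsf3 at -1.49 on 101003_at and -1.83 on 101004_f_at. With median centring Snrpg stood at -0.071, Srsf11 at -0.043 and Srsf6 at -0.32.

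Of the alternatives added after the data were seen, testing just the probe sets that exceeded background on every array compared gave 13 calls (4 higher) between the gradient pools, 12 (4 higher) in serum-treated and 10 (2 higher) in starved cells, and 12 (4 lower) for undertranslated against cytoplasmic RNA. The limit left 30 members between the gradient pools and 29 against cytoplasmic RNA. Of all probe sets tested under it, 69.3%, 60.3%, 50.7% and 54.8% were called, in the same order. Probe sets without suffix letters gave 18 (2 lower), 2 lower in serum-treated and 10 (2 lower) in starved cells, and 5 higher in undertranslated than in cytoplasmic RNA. Both settings test fewer members. Without a variance trend 4 members were lower in starved cells, and array weights gave 14 higher there and 2 called for replicate 2 against replicate 1. Shares of all probe sets called without suffix letters, without a trend or with array weights are not given here. The cause was not tested.

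The replicate block kept all 29 calls between the gradient pools. It gave 20 members higher in polyribosome than in cytoplasmic RNA, against 13 without it, and moved no other count of members by over 1.5 times. Leaving out each array gave 23 to 38 calls between the gradient pools (14 to 27 higher, 8 to 11 lower), 11 to 32 in serum-treated (6 to 24 and 5 to 9) and 5 to 24 in starved cells (2 to 14 and 3 to 10). It gave 0 to 10 for the interaction, 0 to 17 for serum in undertranslated RNA, 1 to 27 for polyribosome (0 to 17 and 1 to 11) and 3 to 24 for undertranslated against cytoplasmic RNA (3 to 10 and 0 to 14). An array left alone in its group was assumed to vary like the others. The share of all probe sets called also moved as arrays were left out, and that under the replicate block is not given here. These moves are therefore no result about the members alone. Dim undertranslated arrays limit what can be seen of faint members.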
